A study of Mus musculus with 23 samples.

Results

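Plasma cell identity genes were followed in the lung of adult mouse offspring as 10 named genes, Jchain, Mzb1, Derl3, Tnfrsf17, Ccr10, Sdc1, Xbp1, Prdm1, Irf4 and Eaf2. They were found by gene symbol among 35322 listed genes, and each of the 10 was present. All 10 passed the filter on low values, 0.5 RPM (reads per 1000000 reads of the library) in at least 4 of the 23 libraries. Tnfrsf17 reached 0.5 RPM in 3 of the 14 libraries without OVA challenge and in all 9 OVA libraries, so it was tested because of the group in which it was high. Without the OVA libraries the other 9 would still have passed.

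The libraries were made from polyA RNA of lung of Balb/c offspring aged 13 weeks, which the study's methods describe as female and as taken after lung function testing. Sham (n = 7) and Sham-OVA (n = 5) offspring had dams given saline during development, and PM (n = 7) and PM-OVA (n = 4) offspring had dams given fine particulate air pollution (PM2.5) intranasally, before mating and on until weaning. Sham-OVA and PM-OVA offspring were sensitised with ovalbumin (OVA) and alum by injection and then breathed OVA aerosol, which produces allergic airway disease (AAD), whereas Sham and PM offspring received nebulised saline by the methods and PBS by the labels. The tissue is the right lower lobe in the methods and is abbreviated RML in the labels. The dam and litter of each library are not given, so the p-values measure the spread between these samples.

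Plasma cells are the antibody-secreting end stage of the B cell lineage. Irf4 and Prdm1 switch off the B cell programme, Xbp1 enlarges the endoplasmic reticulum (ER) in which antibody is folded, and the cells then live in niches reached through chemokine receptors and maintained by survival signals. In allergic airways they are the source of allergen-specific antibody, including the IgE that arms mast cells.

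The saline libraries held 13089691 to 17393579 reads on genes, compared with 2298645 to 12185451 in Sham-OVA and 4324326 to 12355561 in PM-OVA. A read was worth at most 0.0688 RPM in the saline libraries, and 0.311 RPM in Sham-OVA replicate 3, the shallowest library. Xist, the RNA that silences an X chromosome in female cells, was at 0.289 RPM in Sham replicate 1, whereas the 6 remaining Sham libraries held 528 to 1618 RPM. It was kept in its group. DEGs are differentially expressed genes, by the threshold given with the OVA comparison. Without Sham replicate 1 and Sham replicate 6, the Sham library highest for Jchain, 7 of the 10 genes were higher DEGs in Sham offspring, as with all libraries. Of all 16795 genes 64 were higher DEGs then, compared with 333 with all libraries. Leaving out any single Sham library gave 160 to 244, and Sham replicate 1 alone 180.

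Promoter sequence was looked at because most of the 10 genes moved together after OVA challenge. RefSeq windows on GRCm38.p6 were found for 8 of the 10, all but Mzb1 and Ccr10, and the 250 bases before each start were searched on both strands for binding motifs of factors known from the plasma cell programme. The ER stress response element, CCAAT followed at a fixed distance by CCACG, which is bound by ATF6 and XBP1, was present in Derl3 and in 0.113% of all 32851 windows. Its core CCACG, which overlaps the element, was present in 4 of the 8 windows (Derl3, Prdm1, Irf4 and Sdc1) and in 28.3% of all windows. The interferon-stimulated response element, a pair of GAAA repeats 2 bases apart, a motif that IRF proteins bind, was present in Tnfrsf17 and in 2.98% of all windows. The octamer ATTTGCAT, the unfolded protein response core TGACGTGG and the ETS-IRF composite, GGAA and GAAA 2 bases apart, were in 0 of the 8 windows, and in 1.60%, 0.563% and 2.30% of all windows. Printed are the windows of the 2 genes with the rarer motifs, and of Jchain, the most abundant gene after challenge, in which none of the searched motifs occurred. Each runs 5′ to 3′ on the strand of its gene, and capitals mark the motif matches, of either strand.
Derl3, chr10:75893148-75893397, forward strand: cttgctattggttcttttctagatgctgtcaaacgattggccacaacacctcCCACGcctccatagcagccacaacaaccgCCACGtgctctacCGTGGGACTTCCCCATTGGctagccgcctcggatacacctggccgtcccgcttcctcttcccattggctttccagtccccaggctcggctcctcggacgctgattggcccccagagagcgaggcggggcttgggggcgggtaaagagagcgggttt
Tnfrsf17, chr16:11313559-11313808, forward strand: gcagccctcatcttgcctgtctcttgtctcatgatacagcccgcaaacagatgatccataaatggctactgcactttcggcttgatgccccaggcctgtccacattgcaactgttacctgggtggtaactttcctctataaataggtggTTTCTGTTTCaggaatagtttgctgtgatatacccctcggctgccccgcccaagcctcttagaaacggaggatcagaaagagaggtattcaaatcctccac
Jchain, chr5:88527898-88528147, reverse strand: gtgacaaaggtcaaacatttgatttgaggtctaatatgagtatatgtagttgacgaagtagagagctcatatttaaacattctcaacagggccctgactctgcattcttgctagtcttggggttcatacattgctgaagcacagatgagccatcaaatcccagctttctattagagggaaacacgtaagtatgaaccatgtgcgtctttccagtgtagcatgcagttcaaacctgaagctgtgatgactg
In Derl3 the full element lies 156 bases before the start, read on the opposite strand, and further copies of the core lie 198 and 169 bases before it. The Tnfrsf17 match begins 101 bases before the start, also on the opposite strand. A match is a description of the sequence, and binding was not measured here.

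After OVA challenge 8 of the 10 genes were higher and Sdc1 was lower in both maternal groups, and the change of Prdm1 did not pass the test. In Sham offspring 7 rose past the threshold for a differentially expressed gene (DEG, adjusted p under 0.000001 with a log2 fold change above 1), a call made for 1.98% of the 16795 genes tested, and none was a lower DEG, as 2.53% of all genes were. In PM offspring 5 did so, Jchain, Mzb1, Derl3, Eaf2 and Ccr10, where 0.262% of all genes were called higher, and again none was a lower DEG (0.0238% of all genes). At an adjusted p under 0.05 the 8 higher genes of each cohort stand beside 20.6% of all genes in Sham and 20.1% in PM offspring, and the 1 lower gene beside 47.5% and 45.2%, and in either direction 9 of the 10 passed in each cohort, compared with 68.1% and 65.3% of all genes. In both cohorts 7 genes were higher in every OVA library than in any saline library. This pattern held for 13.2% of all genes in Sham and 13.3% in PM offspring. Tnfrsf17, tested only because of its OVA libraries, is among these 7, the 7 DEGs of Sham offspring and the 8 higher genes. Sdc1 was lower without overlap in Sham offspring, as were 35% of all genes. All genes together had a median log2 fold change of -0.48 in Sham and -0.43 in PM offspring, and each change stands beside this general shift. Fold changes are of log2(RPM + 0.5) from limma with Benjamini-Hochberg (BH) adjustment over all genes tested, and they understate the change of genes with low values. In whole lung, more plasma cells and more of these transcripts per cell cannot be told apart.

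**Figure D1:**
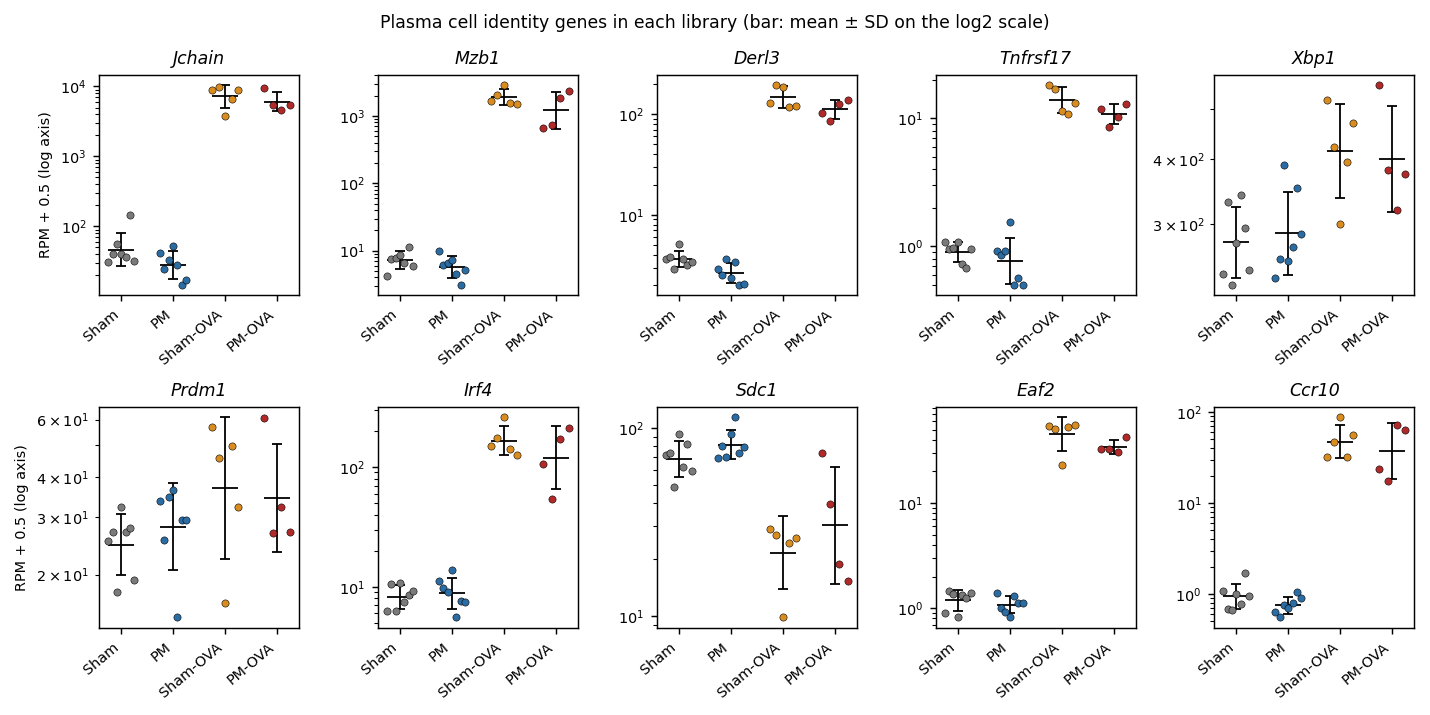
Level of each of the 10 genes in every library, as RPM + 0.5 on log axes that differ between panels, by group (7 Sham, 7 PM, 5 Sham-OVA and 4 PM-OVA libraries as points; bars are mean ± SD on the log2 scale). Jchain, Mzb1, Derl3, Tnfrsf17, Irf4, Eaf2 and Ccr10 lie higher in each OVA library than in any saline library, and Sdc1 lies lower in each Sham-OVA library than in any Sham library.

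Jchain, Mzb1 and Derl3 act in antibody assembly and secretion. Jchain (ENSMUSG00000067149, chromosome 5, 88519809 to 88527891 of GRCm38, reverse strand) encodes the joining chain of polymeric IgA and IgM. It was at 30.9 to 145 RPM in Sham (median 39.4) and 14.2 to 52.7 RPM in PM (median 27.2). Sham-OVA replicates 1 to 5 held 8879.8, 9793, 3788, 6561 and 9031 RPM, and PM-OVA replicates 1 to 4 held 9574, 5487, 4651 and 5431 RPM. The OVA and saline libraries did not overlap, and a single Sham library, replicate 6 at 145 RPM, stood above the rest of its group. The group means differed 141-fold in Sham and 210.1-fold in PM offspring, with log2 fold changes of 7.27 (SE 0.35, limma with BH, adjusted p = 1.66e-09) and 7.76 (SE 0.33, adjusted p = 1.47e-08). Jchain alone took 0.530% to 1.26% of all RPM in the OVA libraries. It ranked 2nd to 7th among the listed genes there, compared with ranks from 1329 to 8981 in the saline libraries.

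Mzb1 (ENSMUSG00000024353, chromosome 18, 35647267 to 35649367, reverse strand) encodes an ER chaperone that assists antibody heavy chain assembly. It went from 3.69 to 10.7 RPM in Sham and 2.63 to 9.36 RPM in PM to 1654, 2042, 2924, 1568 and 1519 RPM in Sham-OVA and 661, 737, 1826 and 2379 RPM in PM-OVA. Its log2 fold changes were 8.04 (SE 0.23, limma with BH, adjusted p = 7.95e-12) and 7.72 (SE 0.37, adjusted p = 4.24e-08), and every OVA library was above every saline library. In Sham offspring it had the second smallest p of all 16795 genes. Mzb1 overlaps the gene model Gm50318, whose reads numbered 0.912 to 0.999 per Mzb1 read in the OVA libraries and 0.951 to 1.43 in the saline libraries, and whether the counting used strand is not given in the sources used here. The reads of Mzb1 and Gm50318 cannot be told apart, so the level of Mzb1 is uncertain.

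Derl3 (ENSMUSG00000009092, chromosome 10, 75893413 to 75895941, forward strand), a derlin that helps retrieve misfolded protein from the ER, is the gene with the ER stress response element shown before. Its levels were 2.37 to 4.63 RPM in Sham and 1.53 to 3.17 RPM in PM. After challenge they were 128, 196, 187, 117 and 121 RPM in Sham-OVA and 103, 85.2, 124 and 138 RPM in PM-OVA, with no overlap with the saline groups. The rise was 5.34 (SE 0.19, limma with BH, adjusted p = 1.26e-10) and 5.40 (SE 0.22, adjusted p = 1.01e-08) on the log2 scale, or 47.3-fold in Sham offspring by group means.

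The receptors did not move as a group. Tnfrsf17 (ENSMUSG00000022496, chromosome 16, 11313812 to 11320074, forward strand) encodes BCMA, the receptor through which long-lived plasma cells take up the survival signals APRIL and BAFF. It was barely counted in saline libraries, with 0.174 to 0.577 RPM (3 to 10 reads) in Sham and 0 to 1.05 RPM (0 to 16 reads) in PM, where 2 libraries were at 0. All OVA libraries were higher, with 17.9, 16.4, 10.9, 10.4 and 12.6 RPM in Sham-OVA and 11.4, 8.11, 9.82 and 12.5 RPM in PM-OVA. Log2 fold changes were 3.94 (SE 0.21, limma with BH, adjusted p = 4.37e-09) and 3.82 (SE 0.31, adjusted p = 2.98e-06), the latter short of the DEG threshold.

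Ccr10 (ENSMUSG00000044052, chromosome 11, 101172997 to 101175443, reverse strand), the chemokine receptor that draws IgA-secreting cells to mucosal surfaces, went from 0.174 to 1.22 RPM in Sham and 0.0512 to 0.550 RPM in PM to 31.5, 45.8, 87.0, 31.9 and 54.9 RPM in Sham-OVA and 23.2, 16.9, 71.4 and 63.2 RPM in PM-OVA. The groups did not overlap, with log2 fold changes of 5.65 (SE 0.29, limma with BH, adjusted p = 3.60e-09) and 5.62 (SE 0.37, adjusted p = 6.64e-07). Its highest saline value, 1.22 RPM, belonged to Sham replicate 6, the library that was also highest of the saline libraries for Jchain and Mzb1.

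Sdc1 (ENSMUSG00000020592, chromosome 12, 8771323 to 8793715, forward strand) encodes syndecan-1 (CD138), the surface proteoglycan by which plasma cells are usually sorted and which epithelial cells also carry. It was the only one of the 10 genes to fall. Sham libraries held 48.0 to 92.9 RPM (median 71.3) and Sham-OVA libraries 28.6, 26.4, 9.32, 23.9 and 25.4 RPM, with no overlap. PM libraries held 68.3 to 113 RPM (median 78.3) and PM-OVA libraries 73.2, 38.9, 18.5 and 14.9 RPM, so that PM-OVA replicate 1 lay within the range of PM. Its log2 fold changes were -1.66 (SE 0.25, limma with BH, adjusted p = 4.64e-05) and -1.42 (SE 0.35, adjusted p = 0.00319), below the median of all genes in both cohorts, and without the 3 shallowest libraries, all of them OVA libraries, the change in PM offspring was -0.60 (adjusted p = 0.0480). Sdc1 was no DEG with all libraries, and it was a lower DEG in Sham offspring without Sham-OVA replicate 3 (log2 fold change -1.37).
Among 11 epithelial markers 4 were higher and 2 lower in Sham offspring and 5 were higher and 2 lower in PM offspring. Their summed level ranged from 20139 to 49799 RPM in Sham, 25553 to 33181 RPM in PM, 23631 to 51428 RPM in Sham-OVA and 19761 to 58442 RPM in PM-OVA, and no marker was at 0 in every library of a group. Krt18, a keratin of simple epithelium, had log2 fold changes of -2.10 (limma with BH, adjusted p = 0.00368) and -1.59 (adjusted p = 0.0117), whereas Agr2, a secretory epithelial gene, rose by 3.78 and 4.69 (adjusted p = 8.85e-07 and 1.15e-06). The part of epithelium in the fall of Sdc1 was not tested.

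Of the transcriptional regulators Irf4 and Eaf2 rose strongly and Xbp1 and Prdm1 did not. Irf4 (ENSMUSG00000021356, chromosome 13, 30749226 to 30766976, forward strand) starts plasma cell differentiation and also acts in T cells and macrophages. From 5.73 to 10.3 RPM in Sham and 5.05 to 13.2 RPM in PM it reached 149, 175, 259, 141 and 126 RPM in Sham-OVA and 106, 53.5, 169 and 210.1 RPM in PM-OVA, and no OVA library overlapped with saline. The log2 fold changes were 4.32 (SE 0.21, limma with BH, adjusted p = 1.66e-09) and 3.75 (SE 0.34, adjusted p = 7.85e-06).

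Eaf2 (ENSMUSG00000022838, chromosome 16, 36792884 to 36875003, reverse strand) encodes a partner of the ELL elongation factors, which shape antibody transcript processing. Its saline levels were 0.317 to 0.950 RPM in Sham and 0.329 to 0.894 RPM in PM. In Sham-OVA it was at 53.2, 50.4, 22.7, 52.3 and 54.9 RPM and in PM-OVA at 32.5, 32.1, 29.9 and 42.1 RPM, well apart from saline, and Sham-OVA replicate 3 was the lowest of the OVA libraries. Log2 fold changes were 5.24 (SE 0.25, limma with BH, adjusted p = 1.66e-09) and 4.98 (SE 0.20, adjusted p = 1.01e-08).

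Xbp1 (ENSMUSG00000020484, chromosome 11, 5520659 to 5525893, forward strand), the transcription factor that drives the secretory apparatus, was well expressed before challenge, at 229 to 341 RPM in Sham and 236 to 389 RPM in PM. It was at 519, 422, 299.8, 395 and 469 RPM in Sham-OVA and 556, 381, 319.7 and 375 RPM in PM-OVA, and the groups overlapped in both cohorts. The rise passed the test at 0.58 (SE 0.16, limma with BH, adjusted p = 0.00521) in Sham and 0.47 (SE 0.18, adjusted p = 0.0366) in PM offspring. When a trend over length and base composition of transcripts was taken out, it did not pass in either cohort (0.25, adjusted p = 0.193, and 0.14, adjusted p = 0.553). The call in PM offspring was also lost on leaving out PM-OVA replicate 1, 2 or 4 or PM replicate 1, 2, 4, 5 or 7, with log2 fold changes from 0.31 (adjusted p = 0.107, without PM-OVA replicate 1) to 0.50 (adjusted p = 0.0518, without PM-OVA replicate 4). The spliced form that makes the active protein was not measured by these gene totals.

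Prdm1 (ENSMUSG00000038151, chromosome 10, 44437177 to 44528501, reverse strand) encodes BLIMP-1, the repressor that fixes plasma cell fate and is also present in T cells and macrophages. Levels were 17.1 to 31.8 RPM in Sham and 14.3 to 35.8 RPM in PM. They were 56.6, 45.1, 15.8, 49.3 and 31.8 RPM in Sham-OVA and 60.0, 26.4, 31.7 and 26.5 RPM in PM-OVA. The ranges overlapped, and Sham-OVA replicate 3 lay below every Sham library. The differences were 0.58 (SE 0.27, limma with BH, adjusted p = 0.0717) and 0.30 (SE 0.27, adjusted p = 0.356). Prdm1 passed in both cohorts with other scalings of the libraries, at 0.94 (adjusted p = 6.99e-04) and 0.66 (adjusted p = 0.0357) with median-of-ratios scaling, and in Sham offspring also without Sham-OVA replicate 3 (0.87, adjusted p = 2.85e-04).

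**Figure D2:**
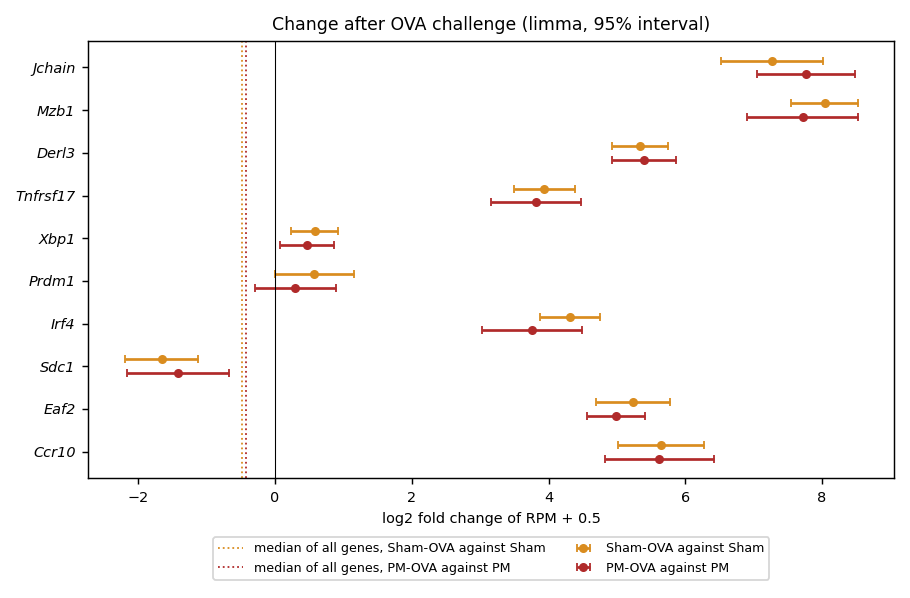
Log2 fold change of RPM + 0.5 after OVA challenge for each of the 10 genes, with 95% intervals from limma, in offspring of saline dams (orange) and of PM2.5 dams (red); dotted lines mark the median of all genes tested, -0.48 and -0.43. The intervals of both cohorts overlap for all 10 genes, from Sdc1 at -1.66 and -1.42 to Mzb1 at 8.04 and 7.72.

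Compared per kilobase of annotated exon, the order of the genes changed with challenge. In Sham libraries Xbp1 stood first at 86.1 ± 13.7 RPM per kb (SD, n = 7), above Jchain at 21.5 ± 16.3, Sdc1 at 18.3 ± 3.95 and Mzb1 at 5.72 ± 1.82, with Eaf2 last at 0.165 ± 0.0580. Jchain and Sdc1 there did not differ beyond their spread. In Sham-OVA Jchain stood first at 3024 ± 975 RPM per kb (SD, n = 5), followed by Mzb1 at 1598 ± 482, Xbp1 at 129.6 ± 25.4 and Derl3 at 75.2 ± 19.3, and Sdc1 was last at 5.97 ± 2.02. Irf4 (34.7 ± 10.8), Ccr10 (29.1 ± 13.2) and Tnfrsf17 (16.7 ± 4.12) followed Derl3, and Irf4 and Ccr10 lay within each other's spread. PM-OVA gave the same order of the first 7 genes, from Jchain at 2497 ± 884 RPM per kb (SD, n = 4) to Tnfrsf17 at 12.8 ± 2.35.

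Maternal exposure was compared without challenge and with it. None of the 10 genes differed between PM and Sham at an adjusted p under 0.05, and none of the 16795 genes did (0%, limma with BH). At an unadjusted p under 0.05 the comparison held 731 genes, among them Jchain and Derl3. DESeq2 and edgeR on the recovered reads called 0 of the 10 as well. Jchain was -0.75 in PM against Sham (SE 0.34, 95% interval -1.46 to -0.03, limma, adjusted p = 0.898), and 4 of the 7 PM libraries were below every Sham library. Without Sham replicate 6 the difference of Jchain was -0.47. Derl3 was -0.45 (SE 0.16, 95% interval -0.80 to -0.11, limma, adjusted p = 0.898), also with 4 PM libraries below every Sham library. None of the 10 genes separated PM from Sham without overlap, and 0.00595% of all genes did so downwards. The other 8 differences lay between -0.32 for Mzb1 and 0.25 for Sdc1.

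With challenge, PM-OVA and Sham-OVA overlapped for all 10 genes, and 0 of the 10 differed by limma with BH (0% of all genes, 313 at an unadjusted p under 0.05), DESeq2 or edgeR. Mzb1 was lower in PM-OVA by group means, at 1401 ± 842 RPM (SD, n = 4) against 1941 ± 586 RPM (SD, n = 5), a log2 difference of -0.64 (95% interval -1.57 to 0.29, limma, adjusted p = 1.0). Jchain was at 6286 ± 2225 RPM (SD, n = 4) and 7611 ± 2455 RPM (SD, n = 5), a difference of -0.26 (95% interval -1.15 to 0.63). Sdc1 had the highest difference at 0.48 (95% interval -0.63 to 1.59), and it was 0.05 without PM-OVA replicate 1. Differences within these intervals were not detectable with these libraries.

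**Figure D3:**
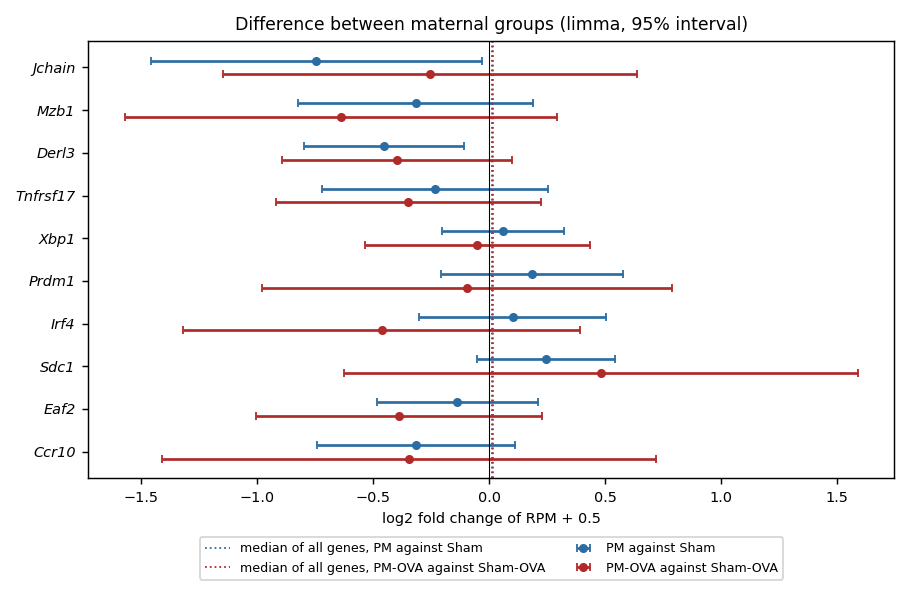
Log2 difference of RPM + 0.5 between offspring of PM2.5 and saline dams for each of the 10 genes, with 95% intervals from limma, without challenge (PM against Sham, blue) and with it (PM-OVA against Sham-OVA, red). Only the intervals of Jchain and Derl3 in PM against Sham leave out 0, with an adjusted p of 0.898 each.

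The difference between both OVA responses was tested as an interaction over all 4 groups, which share their libraries with the comparisons above. It passed for 0 of the 10 genes and for 0% of all genes (limma with BH, 854 genes at an unadjusted p under 0.05, none of them among the 10), and DESeq2 and edgeR called 0 of the 10. Irf4 had the lowest value, -0.56 (95% interval -1.39 to 0.26, limma, adjusted p = 1.0), and Jchain the highest, 0.49 (95% interval -0.57 to 1.55). That 7 genes were DEGs in Sham and 5 in PM offspring therefore does not show a difference between the cohorts. Tnfrsf17 and Irf4, the DEGs of Sham offspring that were not called in PM, had adjusted p of 2.98e-06 and 7.85e-06 there. With DESeq2 on the recovered reads, and with all 4 groups in one limma fit, 7 of the 10 were higher DEGs in PM offspring too. In these fits 1767 and 266 of all genes were higher DEGs in PM offspring.

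Secretory pathway genes accompanied the 10 genes in part. Of 31 genes of the unfolded protein response and secretory pathway 19 were higher, 4 lower and 8 did not pass in Sham offspring, with a median log2 fold change of 0.72, and 17, 4 and 10 in PM offspring, with a median of 0.44. Of all genes 20.6% and 20.1% were higher and 47.5% and 45.2% lower, and their medians were -0.48 and -0.43. The counts and changes of each list, the epithelial markers included, stand beside these values. Fkbp11, a folding enzyme of secretory cells, rose from 4.29 ± 1.98 RPM (SD, n = 7) in Sham to 48.1 ± 3.46 RPM (SD, n = 5) in Sham-OVA and from 3.77 ± 1.12 RPM (SD, n = 7) in PM to 38.3 ± 15.6 RPM (SD, n = 4) in PM-OVA. Manf, a protein released under ER stress, rose by 3.36 and 2.67 (limma with BH, adjusted p = 2.06e-08 and 7.61e-05). Ern1, which encodes the IRE1 kinase that splices Xbp1 RNA, fell by 0.68 and 0.87 (adjusted p = 0.00788 and 0.00366), and Dnajc3, a co-chaperone that restrains the PERK kinase, fell by 0.87 and 1.09 (adjusted p = 0.00158 and 0.00119).

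Homing and survival genes split in the same way, with 8 of 16 higher and 3 lower in Sham and 7 higher and 3 lower in PM offspring. Pigr, the epithelial receptor that carries J chain-containing antibody into the airway, went from 46.7 ± 12.3 RPM (SD, n = 7) in Sham to 563 ± 137 RPM (SD, n = 5) in Sham-OVA and from 52.4 ± 15.0 RPM (SD, n = 7) in PM to 633 ± 164 RPM (SD, n = 4) in PM-OVA. The ligands of Tnfrsf17, chosen after their values were seen, rose, Tnfsf13 (APRIL) by 1.02 and 1.44 (limma with BH, adjusted p = 0.00149 and 7.26e-04) and Tnfsf13b (BAFF) by 1.05 and 0.68 (adjusted p = 9.94e-04 and 0.00931). Ccl28, a ligand of Ccr10 chosen in the same way, fell by 0.69 and 0.82 (adjusted p = 0.0329 and 0.0306), and Cxcl12, which retains plasma cells in niches, fell by 1.14 and 1.22 (adjusted p = 0.00180 and 0.00102). Of 15 other transcripts known from plasma cells 8 were higher and 1 lower in Sham and 6 higher and 2 lower in PM offspring. Among them Tent5c, a poly(A) polymerase of antibody-secreting cells, rose by 1.64 and 1.58 (adjusted p = 3.87e-07 and 4.33e-05), and Creb3l2, a regulator of the secretory pathway, fell by 0.96 and 1.21 (adjusted p = 5.95e-04 and 0.00103).

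Iglc2, the only immunoglobulin constant gene in the values used here, moved with the 10 genes. It was at 1.10 to 7.61 RPM in Sham and 2.82 to 5.09 RPM in PM, and at 796, 507, 862, 335 and 388 RPM in Sham-OVA and 128, 135, 593 and 715 RPM in PM-OVA. The OVA libraries lay above all saline libraries, with log2 fold changes of 7.10 (SE 0.34, limma with BH, adjusted p = 1.66e-09) and 6.13 (SE 0.44, adjusted p = 1.15e-06). The other immunoglobulin constant genes were not analysed here.

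Markers of B cells and of other cells that share some of these genes were read in the same libraries. Of 14 B cell markers 6 were higher and 1 lower in Sham and 2 higher and 2 lower in PM offspring, with median log2 fold changes of 0.81 and 0.22, compared with medians of 4.78 and 4.40 over the 10 plasma cell genes. The 15 other transcripts known from plasma cells had medians of 0.66 and 0.26, near those of the B cell markers. The 9 markers of alternatively activated macrophages had medians of 3.91 and 3.36. Their summed level ranged from 167 to 525.5 RPM in Sham, 178 to 434 RPM in PM, 352 to 915 RPM in Sham-OVA and 309.9 to 570.2 RPM in PM-OVA. Cd79b, of the B cell receptor, rose by 2.18 and 1.62 (limma with BH, adjusted p = 9.59e-05 and 1.64e-04), and Bach2, which holds back plasma cell differentiation, fell by 2.33 and 2.29 (adjusted p = 1.62e-04 and 1.38e-04). Of 8 germinal centre genes tested 2 were higher and 2 lower in Sham and 1 higher and 3 lower in PM offspring.
Plasmacytoid dendritic cell markers, of which 3 of 8 were higher and 1 lower in Sham and 2 higher and 2 lower in PM offspring, summed to 339 to 409 RPM in Sham, 318 to 440.3 RPM in PM, 349 to 559 RPM in Sham-OVA and 361 to 411 RPM in PM-OVA. Siglech, the defining marker of these cells, was at or below 5.23 RPM in every library. T cell markers were higher in 5 of 10 and lower in 1 in Sham offspring, and higher in 4 and lower in 1 in PM offspring. Markers of alternatively activated macrophages were higher in 9 of 9 and 8 of 9, eosinophil markers in 4 of 5 tested and lower in 1 in both cohorts, and proliferation genes in 7 of 8 and 5 of 8. No marker of B cells, T cells, macrophages or plasmacytoid dendritic cells was at 0 in every library of a group. The part of these cells in the levels of Irf4, Prdm1 and Xbp1 was not tested.

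**Figure D4:**
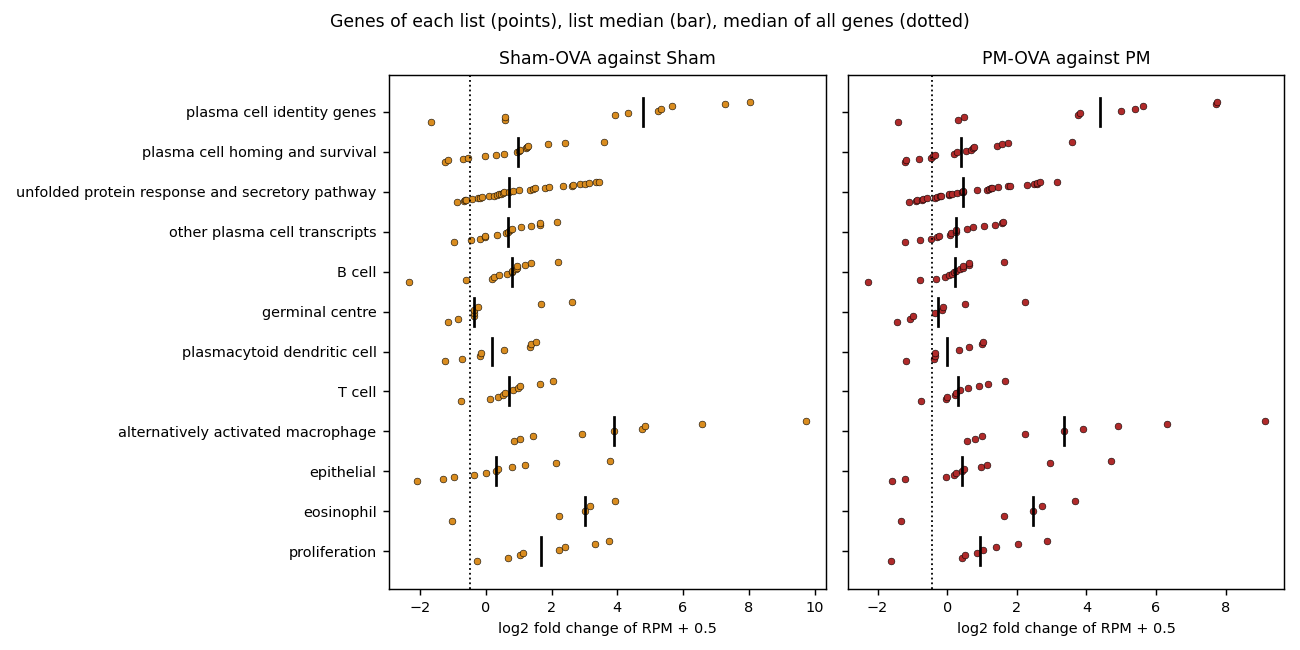
Log2 fold change of RPM + 0.5 after OVA challenge for the genes of 12 lists (points), with the median of each list (bar) and of all genes tested (dotted), in Sham-OVA against Sham and PM-OVA against PM. The 10 plasma cell genes have medians of 4.78 and 4.40, the B cell markers 0.81 and 0.22, and the 15 other plasma cell transcripts 0.66 and 0.26.

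Genes whose levels followed Jchain most closely were found by Pearson's r of log2(RPM + 0.5) over the 23 libraries, which fall into saline and OVA libraries, so that any gene with a strong response scores high. Among genes outside the 10, Rnase2a (0.990), an eosinophil-associated ribonuclease gene, Ccl8 (0.990), a chemokine, Mmp12 (0.985), macrophage elastase, Corin (0.984), a membrane serine protease, and Slpi (0.981), a secreted protease inhibitor, came first. Of the plasma cell genes, Mzb1 (0.983) ranked 5th, Eaf2 (0.982) 6th, Derl3 (0.980) 10th, Tnfrsf17 (0.978) 13th, Ccr10 (0.965) 43rd and Irf4 (0.958) 68th. Xbp1 (0.726), Prdm1 (0.467) and Sdc1 (-0.779) came far behind. With the group means subtracted, the r of the other 9 genes with Jchain ran from -0.14 for Ccr10 to 0.44 for Sdc1, and Rnase2a came first at 0.749.

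Within the OVA groups the levels of the 10 genes were set beside the base composition of the libraries. Relative to the mean over libraries, GC-rich genes exceeded GC-poor genes by 0.0669 to 1.09 on the log2 scale in the OVA libraries, whereas they were lower by 0.144 to 0.452 in the saline libraries. The value was highest in the 3 shallowest libraries, which were PM-OVA replicate 3 (0.973), PM-OVA replicate 4 (0.730) and Sham-OVA replicate 3 (1.09), and lowest among OVA libraries in PM-OVA replicate 1. Mzb1, whose transcript has 54.0% GC, numbered 0.772, 0.393 and 0.438 reads per read of Jchain, with 38.2% GC, in those 3 libraries. In the other 6 OVA libraries it numbered 0.0691 to 0.239, and in the saline libraries 0.0737 to 0.273. Ccr10 (58.0% GC) was likewise highest in the 3 shallowest OVA libraries, at 87.0, 71.4 and 63.2 RPM. Within each OVA group Mzb1 and Irf4 were highest there too, and Irf4 has 47.6% GC, near the median of all genes (47.5%). Eaf2 (36.9% GC) was lowest in Sham-OVA replicate 3 and PM-OVA replicate 3. In PM-OVA replicate 4 it was the highest of its group, at 42.1 RPM. Sdc1 (55.2% GC) was lowest in the 3 shallowest libraries, at 9.32, 18.5 and 14.9 RPM. Xbp1 (53.0% GC) was lowest in Sham-OVA replicate 3 and PM-OVA replicate 3. Transcript length was skewed in the same libraries. Long minus short genes was -1.05 in Sham-OVA replicate 3, -1.02 in PM-OVA replicate 3 and -0.923 in PM-OVA replicate 4. In the other 6 OVA libraries it was -0.139 to -0.752. The transcript of Mzb1 has 904 bases and that of Jchain 2341. The parts of base composition and of transcript length in these levels were not tested. Once a trend over length and base composition was taken out, 7 of the 10 genes and 240 of all 16536 genes were higher DEGs in Sham offspring, and 5 and 31 in PM offspring.

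**Figure D5:**
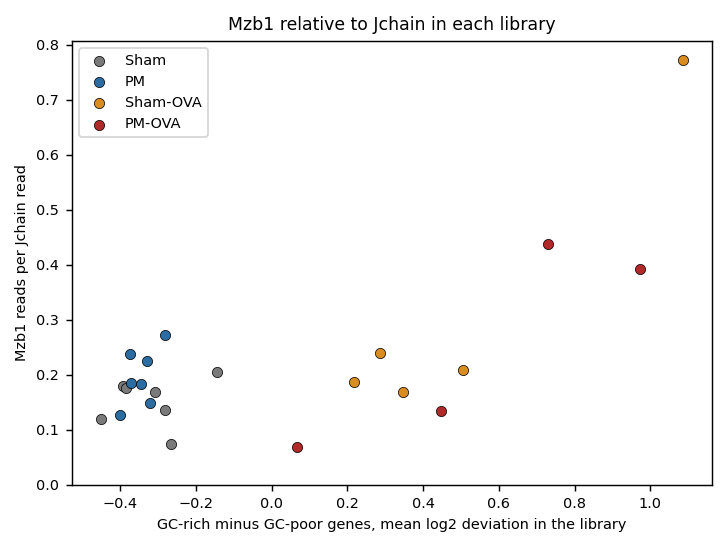
Mzb1 reads per Jchain read (vertical) against the excess of GC-rich over GC-poor genes (horizontal, mean log2 deviation) in each of the 23 libraries, coloured by group. The 3 OVA libraries with the highest excess, 0.730 to 1.09, have ratios from 0.393 to 0.772, and all other libraries lie at 0.273 or lower. These 3 libraries also have the lowest level of long relative to short genes, -1.05 to -0.923, which is not drawn.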

How the data were processed

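Lung polyA RNA was sequenced as single-end reads of 100 bases, aligned by the authors to the mouse genome (mm10 per the labels, GRCm38 in the methods) and quantified per gene in SeqMonk. The deposited values carry the name RPKM, but by their size they are RPM, reads per 1000000 reads of the library: 100.0% of values were whole multiples of 1 read within a tolerance of 0.1 read, and the reads were recovered from them. Whether the counting used strand is not given in the sources used here.

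RPM values were tested as log2(RPM + 0.5) with limma 3.58.1 in R 4.3.3 (trended variance, 2 groups per fit, all 4 for the interaction), after a filter of 0.5 RPM in at least 4 of 23 libraries. The study used DESeq2, whereas limma was chosen here because the deposited unit is not counts. p-values were adjusted over 16795 genes. edgeR 4.0.16 and DESeq2 1.42.0 on the recovered reads, other pseudocounts, filters, scalings, weights and depths, a replicate block and leaving out each library were alternatives. On simulated data for Sham-OVA against Sham, 199 of 200 changed genes among 16474 were recovered with 11 false calls, and for PM-OVA against PM 199 of 200 among 16452 with 21. In the simulation the 200 genes changed by the same fold up or down, and all genes had the same dispersion. It held no general shift and no skew in base composition or length, so it does not measure recovery in the real libraries. Levels between genes were compared per kb of merged exons of GRCm38, with lengths and GC content known for 16536 tested genes. Library totals behind each value are given as reads on genes. The 10 genes and all lists were chosen with earlier results of these data known. Named were the 10 genes, from each list the 2 genes with the highest and the 2 with the lowest log2 fold change in Sham offspring, the 5 genes most like Jchain, and defining markers of other cell types. Figures were drawn with Python 3.11.15 and matplotlib 3.10.9.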

Additional observations from a re-analysis of the deposited data

Results flagged for a closer look

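In 8 of the 40 groups of values (10 genes in 4 groups) 1 library stood apart from the rest of its group by Dixon's test on RPM. Chance alone flags about 1 in 20 groups where values are normally distributed and groups are independent. The 40 groups share the 23 libraries and RPM was not put on a log scale, so the number flagged does not measure an excess. Jchain was at 145 RPM in Sham replicate 6, where the next highest Sham library held 54.8 RPM, and Ccr10 was at 1.22 RPM in the same library, where the next held 0.577 RPM. Jchain was at 9574 RPM and Prdm1 at 60.0 RPM in PM-OVA replicate 1, compared with 5487 and 31.7 RPM in the next highest PM-OVA libraries. Sdc1 was at 9.32 RPM and Eaf2 at 22.7 RPM in Sham-OVA replicate 3, the shallowest library, where the next lowest Sham-OVA libraries held 23.9 and 50.4 RPM. Derl3 was at 4.63 RPM in Sham replicate 4 (next 3.29 RPM) and Tnfrsf17 at 1.05 RPM in PM replicate 4 (next 0.415 RPM).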

How the results depend on the processing

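In Sham offspring 7 of the 10 genes were higher DEGs under each alternative except the replicate block, beside 64 to 2302 of all genes. In PM offspring 4 to 7 were, beside 15 to 1767 of all genes, except without a filter on low values (2, beside 14 of 23487 genes) and with the replicate block. Whether replicate numbers pair the libraries is not given in the labels, and for most OVA libraries the number differs from that in the library name. Correlations of same-numbered libraries were -0.0665 to 0.115 in Sham offspring, -0.101 to 0.0625 in PM offspring and -0.248 to 0.104 in PM against Sham. In PM-OVA against Sham-OVA they were -0.311 to 0.617. With the number as a block 1 of the 10 genes in Sham and 0 in PM offspring was a higher DEG, beside 5 and 0 of all 16795 genes. At an adjusted p under 0.05, 8 and 7 of the 10 were higher, where 10025 and 7982 of all genes passed in either direction. The cause of these changes was not tested. Sdc1 became a lower DEG in Sham offspring with array weights, with DESeq2, without Sham-OVA replicate 3 and without the 3 shallowest libraries, and in no other alternative. In Sham offspring, leaving out the 3 shallowest libraries drops only Sham-OVA replicate 3, so it is the same fit as leaving out that library. Leaving out each library in turn gave 7 to 7 higher DEGs in Sham and 4 to 5 in PM offspring. Other scalings moved the median of all genes in Sham offspring from -0.48 to -0.17 (median-of-ratios) and -0.09 (TMM and quantile). Prdm1 gained a call in 9 of 29 alternatives in Sham and 6 of 27 in PM offspring, and Xbp1 lost its call in 12 of 27 in PM offspring, with 0.31 (adjusted p = 0.107) without PM-OVA replicate 1. The fit without Sham-OVA replicate 3 is counted under both of its names in the 9 and in the 29. Count models on the recovered reads called more of all genes higher DEGs in Sham offspring (941 with edgeR and 2302 with DESeq2, compared with 333) and 41 and 1767 in PM offspring (44 with limma). No gene of the 10 passed in PM against Sham, PM-OVA against Sham-OVA or the interaction under any alternative. Removal of the trend with length and GC content, and the leaving out of Sham replicates 1 and 6 or of the 3 shallowest libraries, were chosen after seeing the data. The planned test of summed immunoglobulin heavy chain constant genes was not run.

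Differences that passed under no setting changed sign as follows. With array weights the interaction was 0.80 for Ccr10, 0.34 for Mzb1, 0.0105 for Irf4 and -0.50 for Sdc1, PM-OVA against Sham-OVA was 0.11 for Ccr10 and -0.0190 for Sdc1, and PM against Sham was -0.0710 for Xbp1. The interaction of Ccr10 was also 0.25 with a pseudocount of 0.1, 0.0556 with all libraries at one depth, 0.68 with edgeR and 0.65 with DESeq2, and that of Tnfrsf17 was 0.34 with a pseudocount of 0.1, 0.0085 with edgeR and 0.0104 with DESeq2. The interaction of Derl3 was -0.0081 with a pseudocount of 1 and -0.0958 without the 3 shallowest libraries, where PM-OVA against Sham-OVA was 0.0366 for Xbp1. Quantile normalisation gave -0.00555 for Xbp1 in PM against Sham and 0.13 for Jchain in PM-OVA against Sham-OVA, and one depth gave 0.0012 for Tnfrsf17 in PM against Sham. Leaving out each library in turn, the interaction ranged from -0.35 to 0.33 for Ccr10, -0.0485 to 0.18 for Derl3, -0.19 to 0.56 for Sdc1 and -0.22 to 0.0536 for Tnfrsf17. PM against Sham ranged from -0.0054 to 0.21 for Irf4 and -0.0150 to 0.11 for Xbp1, and PM-OVA against Sham-OVA from -0.66 to 0.0172 for Ccr10, -0.39 to 0.0605 for Prdm1 and -0.21 to 0.0546 for Xbp1.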
